A study of Homo sapiens with 7 samples.

Results

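The mTOR complexes and the proteins directly upstream of them were followed through 10 genes in 7 K562 lines. The members are MTOR, RPTOR, RICTOR, DEPTOR and AKT1S1, which encode the mTOR kinase and proteins bound to it, and TSC1, TSC2, RHEB, SESN1 and SESN3, which encode regulators that act before it. They were chosen by name, and all 10 were found among the 25702 gene IDs of the count table. K562 is a long-established line of chronic myeloid leukemia cells driven by the BCR::ABL1 fusion kinase, and dasatinib is a tyrosine kinase inhibitor that blocks this kinase. Dasatinib resistant (DasR) lines were derived by growing K562 cells in rising drug concentrations. The controls were the drug naive line and a DMSO vehicle line kept in parallel without dasatinib. The 10, 15 and 25 nM DasR intermediates formed the early stage group (n = 3), and the 50 and 200 nM DasR intermediates formed the late stage group (n = 2). The study set these stages from clustering of the same libraries. Each line gave 1 RNA library, so replicates of a group are its different lines, the spread within a group includes dose, and p-values compare these lines only. Total counts per library were between 20059656 and 27844799.

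mTOR is a protein kinase that works in a pair of complexes. mTORC1 contains raptor (RPTOR) and the inhibitor PRAS40 (AKT1S1), responds to amino acids and growth factors, and drives protein, lipid and nucleotide synthesis. mTORC2 contains rictor (RICTOR) and phosphorylates AKT. The TSC1-TSC2 complex switches off RHEB, the small GTPase that activates mTORC1, and sestrins restrain mTORC1 when amino acids are short. In cells carrying BCR::ABL1 the PI3K, AKT and mTOR route is one of the routes that the fusion kinase feeds. RNA levels say nothing of the activity of these kinases.

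Of the 10 members, 9 passed the limit of at least 10 CPM (the read count relative to the library total) in at least 2 libraries, as did 10452 genes in all. The quasi-likelihood test of edgeR, adjusted by the Benjamini-Hochberg method, called 2 of the 9 between early stage and control lines at a false discovery rate (FDR) of 0.005, against 18% of all genes tested. Both were higher, as were 7.92% of all genes. SESN1, a sestrin, rose about 2-fold (fold = 1.99), and AKT1S1, the inhibitory mTORC1 subunit, rose 1.44-fold. At an FDR of 0.05 RICTOR also fell, to 0.679 of the control level, which made 3 of 9 against 46.5% of all genes. None of the 9 passed an FDR of 0.005 between late stage and control lines by edgeR, against 7.98% of all genes. For that comparison 3 members had an unadjusted p under 0.05, as did 4798 of all 10452 genes. DESeq2 called AKT1S1 there, with 24% of all genes called, and limma-voom called no member. At an FDR of 0.05 AKT1S1 and SESN1 passed, 2 of 9 against 33.9% of all genes. The SESN1 call was lost in every fit that left out a library, and the AKT1S1 call without the drug naive line. Between late and early stage lines no member passed by edgeR, DESeq2 or limma-voom, where edgeR and limma-voom called 0% and DESeq2 10.9% of all genes. For that comparison 4 of the 9 members had an unadjusted p under 0.05, as did 3450 of all 10452 genes. SESN1 passed 0.05 there, 1 of 9 against 12.7% of all genes. With 9 members, differences of this size from the share of all genes were not tested.

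The median log2 fold change of the 9 members was 0.119 in early stage lines against controls and 0.104 in late stage lines against controls, and the medians of all genes were 0.00307 and -0.00358. The median size of change without regard to sign was 0.320 for the members in early stage lines, where it was 0.349 for all genes. In CPM, the early stage and control lines did not overlap for 7 of the 9 members, a separation seen for 69.8% of all genes. Late stage and control lines were apart for 4 of the 9, against 67.7% of all genes, and late and early stage lines for 5 of the 9, against 53.3%. The early and late stage comparisons share the control lines, so their values are set side by side and are not independent.

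**Figure D1:**
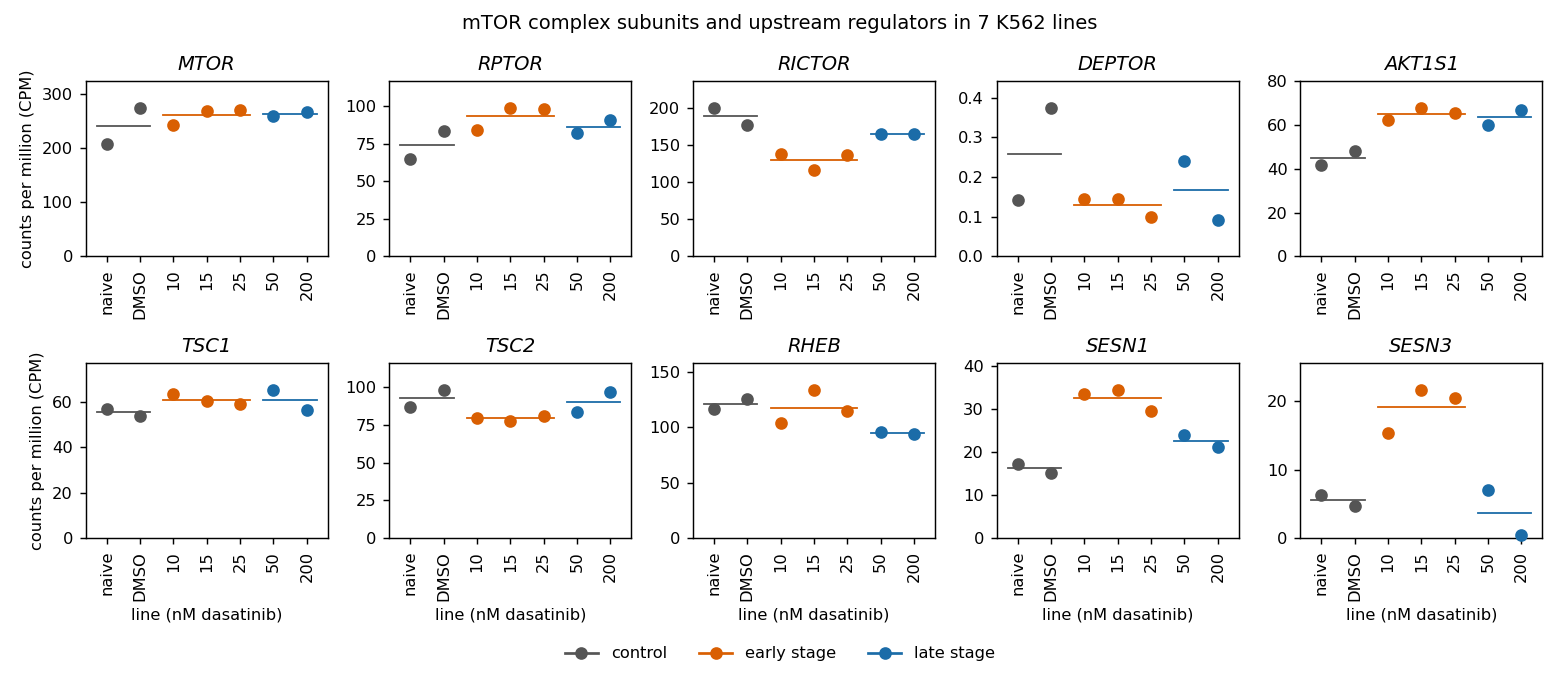
CPM (vertical axes, each from 0) of the 10 members in the 7 K562 lines (horizontal axes), with 1 point per library and a line at the mean of each group. AKT1S1, SESN1 and SESN3 exceeded both controls in the 3 early stage lines, RICTOR was lower, and DEPTOR was at 0.374 CPM or less in every line.

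Levels between genes can be compared only per length, as RPKM, which is CPM divided by the transcript length in kilobases. RHEB stood highest, with a median of 55.2 RPKM over the 7 lines and a range from 45.2 to 64.5 that did not overlap that of any other member. MTOR followed with a median of 30.5 RPKM, then AKT1S1 with 25.5, RICTOR with 17.4, TSC2 with 14.8, RPTOR with 12.3, SESN1 with 8.68, TSC1 with 6.85 and SESN3 with 3.53 RPKM. Below RHEB, each neighbor in this order overlapped the next in its range over the lines. SESN3 ranged from 0.210 to 10.9 RPKM, the widest range of any member tested on the log2 scale. DEPTOR, an inhibitor that binds mTOR in both complexes, had between 2 and 9 counts per library, or 0.0926 to 0.374 CPM. It was outside the limit for testing. When every gene with counts was tested, its FDR was 0.431 in early stage and 0.688 in late stage lines against controls.

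MTOR itself, the kinase shared by both complexes (chr1:11166592-11322613 in hg19), was measured at 207 CPM in the drug naive line and 275 CPM in the DMSO line. It was at 242, 268 and 271 CPM in the 10, 15 and 25 nM DasR lines, and at 259 and 266 CPM in the 50 and 200 nM DasR lines. All 5 DasR lines lay between the 2 controls. The log2 fold change was 0.10 (95% interval -0.17 to 0.37, FDR = 0.506) in early stage lines and 0.10 (-0.19 to 0.40, FDR = 0.552) in late stage lines.

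RPTOR, the scaffold that brings substrates to mTORC1 (chr17:78518619-78940171), was at 64.9 CPM in the drug naive and 83.7 CPM in the DMSO line. It was at 84.1, 98.8 and 97.9 CPM in the 10, 15 and 25 nM lines and at 81.9 and 90.3 CPM in the 50 and 200 nM lines. The 10 nM line barely exceeded the DMSO line, and the late stage lines overlapped the controls. The log2 fold change of 0.32 (SE = 0.12) in early stage lines did not pass at either threshold (FDR = 0.0666).

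AKT1S1 encodes PRAS40, which binds raptor and inhibits mTORC1 until AKT phosphorylates it (chr19:50372290-50381716). It was at 41.5 CPM in the drug naive and 48.1 CPM in the DMSO line, and at 62.2, 67.8 and 65.2 CPM in the 10, 15 and 25 nM lines. In the 50 and 200 nM lines it was at 59.9 and 66.9 CPM, so every DasR line was above both controls. The log2 fold change was 0.52 (SE = 0.09, FDR = 0.00449) in early stage lines and 0.48 (SE = 0.10, FDR = 0.0125) in late stage lines. Between late and early stage lines no difference was detectable (log2 fold change = -0.04, 95% interval -0.26 to 0.17, FDR = 0.773). Its early stage call sat close to the threshold. It was lost when any control or early stage line was left out, with an FDR of up to 0.0337 without the drug naive line, and the log2 fold change then stayed between 0.45 and 0.60. It was also lost with library size alone, with a limit of 1 CPM and with no CPM limit (FDR between 0.00551 and 0.00606).

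RICTOR, the defining subunit of mTORC2 (chr5:38938022-39074504), was lower in each DasR line than in either control. It was at 200.4 CPM in the drug naive and 177 CPM in the DMSO line, against 137, 116 and 136 CPM in the 10, 15 and 25 nM lines. Both late stage lines were at 165 CPM, between the early stage lines and the controls, with no overlap among the 3 groups. In early stage lines the log2 fold change was -0.56 (SE = 0.11, FDR = 0.00669), which fell short of 0.005 and passed 0.05. DESeq2 and the fit without a CPM limit placed it under 0.005, and without the drug naive line its FDR was 0.0532. In late stage lines against controls the value was -0.22 (95% interval -0.51 to 0.08, FDR = 0.215). RPTOR and RICTOR, which mark mTORC1 and mTORC2, ran opposite to each other over the 7 lines (r = -0.875 on log2 CPM), a description over lines that fall into groups.

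TSC1 and TSC2 form the complex that keeps RHEB in its inactive state. TSC1 lies on chromosome 9 (chr9:135766735-135822261), 2003673 bases beyond the end of ABL1, the gene whose kinase dasatinib blocks. TSC1 was at 56.9 and 54.0 CPM in the drug naive and DMSO lines, at 63.3, 60.3 and 59.0 CPM in the early stage lines and at 65.4 and 56.3 CPM in the late stage lines. Its range over lines was 0.29 on the log2 scale, narrower than that of most genes, with only 7.59% of the 10452 genes narrower still. TSC2 (chr16:2097968-2139492) was at 87.0 and 98.5 CPM in the controls, at 79.8, 77.6 and 80.7 CPM in the early stage lines and at 83.6 and 97.2 CPM in the late stage lines. The 3 early stage lines were below both controls, but the log2 fold change of -0.24 (SE = 0.09) did not pass (FDR = 0.0664). Among TSC2 exon bases, 3.82% are shared with PKD1 on the opposite strand, and 1.98% of those of TSC1 are shared with GFI1B. In AKT1S1, 2.63% are shared with TBC1D17 on the opposite strand, and in RICTOR 1.7% with OSMR. The strand setting of the counting is not stated, so reads in such bases cannot be assigned to 1 gene.

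RHEB, the GTPase that activates mTORC1 (chr7:151163098-151217206), was at 116 CPM in the drug naive and 126 CPM in the DMSO line. Early stage lines scattered around the controls at 103, 134 and 115 CPM. The 50 and 200 nM lines were at 95.5 and 93.8 CPM, below all 5 other lines. Late stage lines had a log2 fold change of -0.37 against controls (SE = 0.12, FDR = 0.0541) and -0.31 against early stage lines (SE = 0.11, FDR = 0.109), and neither passed.

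The sestrins were the members that differed most between the lines. Sestrins are stress-induced proteins that bind GATOR2 and thereby hold mTORC1 back, and SESN2 is the leucine sensor of the family. SESN1 is known as a p53 target, SESN3 as a FOXO target and SESN2 as an ATF4 target. Because SESN1 and SESN3 were both higher in the early stage lines, the 250 bases before their RefSeq start sites (GRCh38.p14) are shown, with CG pairs in capitals. The stretch of SESN1, the first of 3 windows listed for it, is chr6:109094847-109095096 on the minus strand, and that of SESN3 is chr11:95232476-95232725 on the minus strand.
SESN1: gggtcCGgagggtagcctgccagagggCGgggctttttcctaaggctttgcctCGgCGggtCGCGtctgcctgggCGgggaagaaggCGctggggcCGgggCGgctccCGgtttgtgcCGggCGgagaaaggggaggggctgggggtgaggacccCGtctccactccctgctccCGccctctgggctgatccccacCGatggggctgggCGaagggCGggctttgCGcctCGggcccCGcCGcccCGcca
SESN3: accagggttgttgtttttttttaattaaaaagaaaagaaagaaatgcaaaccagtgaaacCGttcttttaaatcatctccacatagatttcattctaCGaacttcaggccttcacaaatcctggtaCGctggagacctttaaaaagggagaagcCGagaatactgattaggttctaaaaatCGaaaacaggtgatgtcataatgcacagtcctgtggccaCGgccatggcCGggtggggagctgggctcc
The SESN1 stretch holds 23 CG pairs and that of SESN3 holds 7. In the full windows, from 250 bases before to 50 after the start, 75% of the bases were G or C for SESN1 and 45% for SESN3, with a median of 58.7% over 35116 such windows in RefSeq. SESN3 had the lowest share of G and C among the 12 windows examined for the members and SESN2.

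Words for FOXO and ATF4 and the E-box were searched on both strands of these windows, and no word for p53 was searched. They were TGTTTAC for FOXO, TGATGNAA for ATF4 and CACGTG for the E-box read by MITF-type and MYC-type factors, and they occur in 3.42%, 3.62% and 7.26% of all windows. None was in a window of SESN1, SESN3, SESN2, MTOR, RPTOR, RICTOR, TSC1 or RHEB. The single window with a match was one of those of TSC2, where an E-box and an ATF4 word overlap, with the E-box beginning 114 bases and the ATF4 word 110 bases before the start. It is shown because no other window searched had a match, with both words in capitals (chr16:2047855-2047898, plus strand, GRCh38.p14).
TSC2: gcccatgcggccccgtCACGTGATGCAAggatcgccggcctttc
A match of letters is not evidence of binding, and a window without one says only that these letters are not in it.

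SESN1 (chr6:109305512-109416049 in hg19) was at 17.2 and 15.2 CPM in the drug naive and DMSO lines and at 33.6, 34.5 and 29.6 CPM in the 10, 15 and 25 nM lines. It was at 24.0 and 21.1 CPM in the 50 and 200 nM lines, and the 3 groups did not overlap. The log2 fold change was 0.99 (SE = 0.14, FDR = 0.00168) in early stage lines and 0.45 (SE = 0.15, FDR = 0.0487) in late stage lines. Late stage lines were lower than early stage lines by a log2 fold change of -0.54 (SE = 0.13, FDR = 0.0422), which passed 0.05 and not 0.005, where 12.7% of all genes did the same. That call was lost in 6 of the 7 fits that left out a library, with an FDR of 0.227 without the 200 nM line. The early stage FDR rose to at most 0.0130, without the DMSO line, and missed 0.005 whenever a control or early stage line was left out.

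SESN3 (chr11:94898677-94965705) was at 6.24 and 4.74 CPM in the drug naive and DMSO lines, 15.3, 21.7 and 20.5 CPM in the 10, 15 and 25 nM lines and 7.01 CPM in the 50 nM line. In the 200 nM line it was at 0.417 CPM, or 9 counts, the lowest of all lines. It passed the CPM limit only through the early stage lines. The early stage mean was 3.49 times the control mean, yet the log2 fold change of 1.78 (SE = 0.81) did not pass (FDR = 0.111). The 50 and 200 nM lines lay far apart, and they share in the estimate of spread. When only early stage and control libraries were fitted, the log2 fold change was 1.79 and the FDR 0.00162, which is given as a value only, since the limit let SESN3 in through the lines where it was high. Against early stage lines the late stage log2 fold change was -2.37 (SE = 0.85, FDR = 0.105), and without the 50 nM line it was -5.52 (FDR = 0.00298). The second FDR is likewise a value only, as it sets 1 line against the early stage lines and assumes that it varies like the other groups. Its range over the lines, 5.44 on the log2 scale, ranked 128 among the 10452 genes.

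SESN2 (chr1:28586029-28609002) is not a member, and it ran the opposite way. It was at 233 and 298 CPM in the controls, at 67.2, 66.7 and 70.7 CPM in the early stage lines and at 87.4 and 145 CPM in the late stage lines. This gave a log2 fold change of -1.97 (SE = 0.20, FDR = 0.000566) in early stage lines and -1.21 (SE = 0.22, FDR = 0.00713) in late stage lines. The early stage lines thus carried more SESN1 RNA and less SESN2 RNA than either control.

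**Figure D2:**
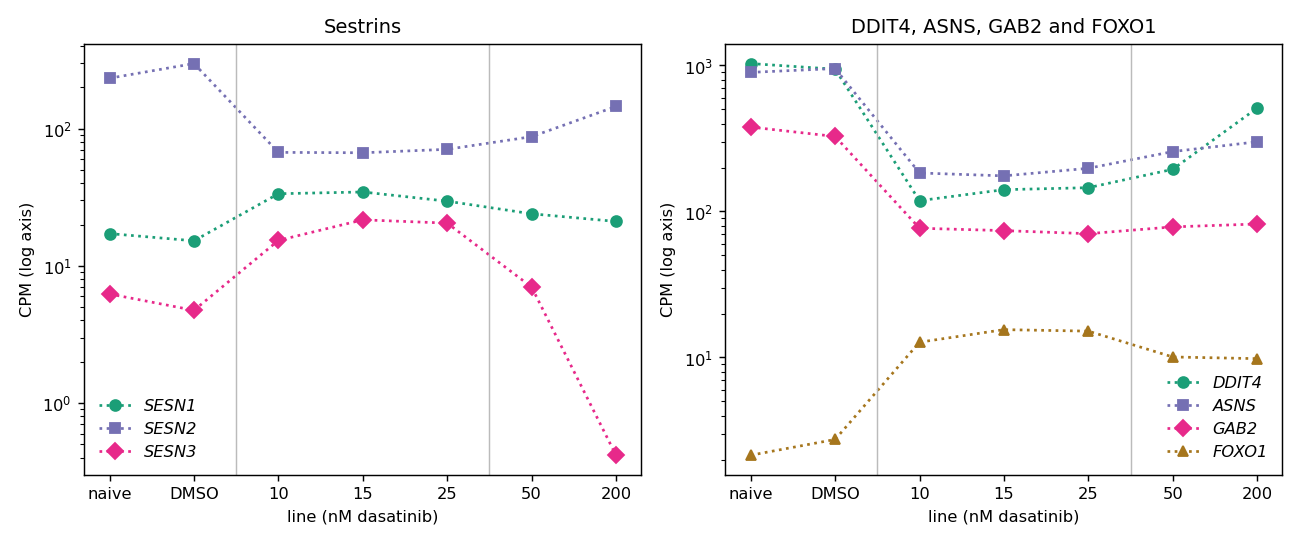
CPM on log axes in the 7 K562 lines for the 3 sestrins (left) and for DDIT4, ASNS, GAB2 and FOXO1 (right), 1 point per library, with dotted joins as a guide and grey lines between control, early stage and late stage lines. SESN1 and SESN3 were highest and SESN2, DDIT4 and ASNS lowest in the early stage lines, and SESN3 reached 0.417 CPM in the 200 nM line.

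**Figure D3:**
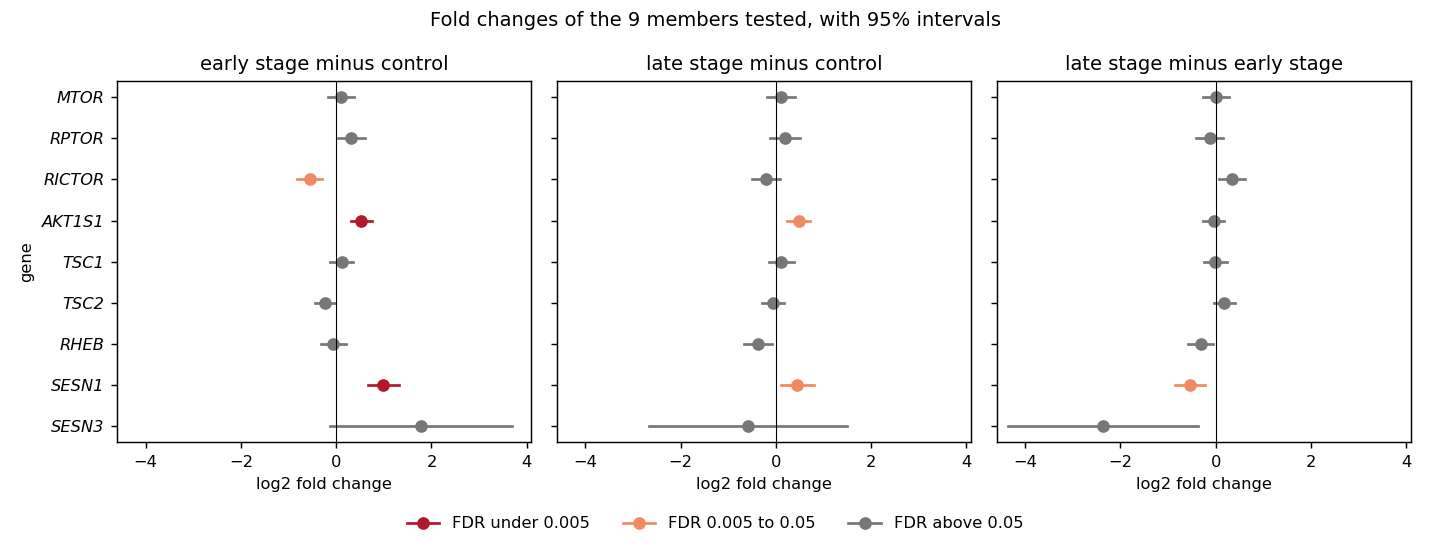
Log2 fold changes (points) with 95% intervals (bars) of the 9 members tested, for early stage against control, late stage against control and late against early stage lines. SESN1 and AKT1S1 in early stage lines are under an FDR of 0.005, and the intervals of SESN3 are the widest in each panel.

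The genes most like the 3 members of widest range were found by Pearson correlation of log2 CPM over the 7 lines, with no p since the lines fall into groups. Those closest to SESN3 were RBM15 (r = 0.997), PDPR (0.995), KBTBD8 (0.993), ZSCAN25 (0.992) and SYDE2 (0.989). Closest to SESN1 were IQSEC1 (0.995), RNF121 (0.994), ABCA5 (0.994), LINC00891 (0.992) and LAMB1 (0.992). Closest to RICTOR were HERC4 (0.999), EP400 (0.997), FBXW7 (0.993), SLAIN2 (0.993) and SYNJ2 (0.991). Among members, TSC2 and SESN1 (r = -0.917), RICTOR and SESN1 (-0.878), RPTOR and RICTOR (-0.875), RPTOR and AKT1S1 (0.863) and MTOR and RPTOR (0.843) had the strongest correlations, and SESN1 with SESN3 gave 0.588.

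Around the members, 109 other genes of the pathway were listed in 10 groups, and 96 of them were tested. In early stage lines against controls 7 were higher and 14 lower at an FDR of 0.005, or 21.9%, beside 18% of all genes. In late stage lines 4 were higher and 7 lower, or 11.5%, beside 7.98% of all genes. The higher genes include PRR5, KICS2, FOXO1 and IRS1 in early and KICS2 and FOXO1 in late stage lines. These passed the CPM limit only through DasR lines, so their place in the counts is no test. Between late and early stage lines edgeR and limma-voom called none, and 36 of the 96 had an unadjusted p under 0.05, as did 3450 of all 10452 genes. DESeq2 called 19 of the 96, with 10.9% of all genes called. The median log2 fold changes of these 96 genes were -0.0186 in early and -0.0312 in late stage lines.

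Among the other subunits of the complexes, 1 of 7 was called in early stage lines, or 14.3%, beside 18% of all genes. This was PRR5, which encodes protor-1 of mTORC2, with 9.47 and 6.74 CPM in the control lines against 20.5, 26.0 and 21.7 CPM at 10, 15 and 25 nM (log2 fold change = 1.47, SE = 0.21, FDR = 0.00207). PRR5 passed the CPM limit only through DasR lines, so this FDR is a value only. PRR5 was thus higher where RICTOR, its partner in the complex, was lower. Of the 11 tested genes of GATOR1, GATOR2 and KICSTOR, which relay amino acid levels to mTORC1, 2 were higher in early stage lines and none lower. This is 18.2% of the group, about the 18% of all genes called. KICS2, a subunit of KICSTOR, rose by a log2 fold change of 1.40 (SE = 0.17, FDR = 0.00101) and by 1.22 in late stage lines (SE = 0.18, FDR = 0.00356). KICS2 passed the CPM limit only through DasR lines, so both FDRs are values only. NPRL3, a subunit of GATOR1, rose by 0.66 in early stage lines (SE = 0.12, FDR = 0.00397). None of the 12 tested Rag GTPase, Ragulator and folliculin genes was called in any comparison by edgeR or limma-voom at an FDR of 0.005. By edgeR 18% of all genes were called in early and 7.98% in late stage lines. DESeq2 called 1 of the 12 in early stage lines, with 34% of all genes called. An unadjusted p under 0.05 was reached by 2 in early stage lines, 4 in late stage lines and 1 between the stages. In the same order this held for 5665, 4798 and 3450 of all 10452 genes.

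The PI3K and AKT group feeds growth factor signals to TSC2 and AKT1S1, and 3 of its 14 tested genes were higher and 1 lower in early stage lines. These are 28.6% of the group, beside 18% of all genes, and they include IRS1, which was tested only because it was high in those lines. GAB2, an adaptor that couples BCR::ABL1 to PI3K, was at 378 and 326 CPM in control lines and at 76.8, 73.9 and 70.4 CPM at 10, 15 and 25 nM. In the 50 and 200 nM lines GAB2 was at 78.4 and 82.1 CPM, so that the DasR lines held about one level. Its log2 fold change was -2.27 (SE = 0.10, FDR = 7.76e-05) in early and -2.16 (SE = 0.12, FDR = 0.000219) in late stage lines. PIK3R2, a regulatory subunit of PI3K, rose by a log2 fold change of 1.22 in early stage lines (SE = 0.12, FDR = 0.000563). PIK3R4, a subunit of the VPS34 complex, rose by 0.84 in early (SE = 0.09, FDR = 0.000693) and by 0.74 in late stage lines (SE = 0.10, FDR = 0.00242). The third higher gene was IRS1, an adaptor of the insulin receptor, named after its values were seen. IRS1 was at 0.714 and 0.374 CPM in the control lines, at 11.1, 24.5 and 16.1 CPM at 10, 15 and 25 nM and at 1.54 and 2.64 CPM at 50 and 200 nM. Its log2 fold change was 4.97 (SE = 0.53, FDR = 0.000693) in early stage lines. IRS1 passed the CPM limit only through those lines, so this FDR is a value only.

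AMPK and the hypoxia input restrain mTORC1 through TSC2 and raptor. Of their 9 tested genes, 2 fell in early stage lines and 1 fell in late stage lines. These are 22.2% and 11.1% of the group, beside 18% and 7.98% of all genes. DDIT4, which encodes REDD1, a stress-induced activator of the TSC complex, was at 1030 and 942 CPM in the controls and at 119, 141 and 146 CPM in the 10, 15 and 25 nM lines. It was at 194 CPM in the 50 nM line and 510 CPM in the 200 nM line. The log2 fold change was -2.89 (SE = 0.34, FDR = 0.000996) in early stage lines. Against controls, late stage lines stood at -1.51 (SE = 0.38, FDR = 0.0217). PRKAB2, a regulatory subunit of AMPK, fell to 0.519 of the control level in early stage (log2 fold change = -0.95, SE = 0.10, FDR = 0.000669) and to 0.468 in late stage lines (-1.09, SE = 0.11, FDR = 0.00121). TSC1 and TSC2, through which DDIT4 acts, did not pass in the same lines.

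Among 13 tested substrates of the complexes, ULK1, the kinase that starts autophagy and is inhibited by mTORC1, was the only one called by edgeR in early stage lines, at 0.520 of the control level (log2 fold change = -0.94, SE = 0.12, FDR = 0.00121). Its partner ATG13 was the only one called by edgeR in late stage lines, at 0.632 (-0.66, SE = 0.09, FDR = 0.00256). By edgeR this was 7.69% of the 13 in each stage, beside 18% of all genes in early and 7.98% in late stage lines. DESeq2 called 4 of the 13 in early and 3 in late stage lines, with 34% and 24% of all genes called. FOXO1, a transcription factor that AKT keeps out of the nucleus, was the only one of 3 FOXO genes called against controls by edgeR at 0.005. This is 33.3% of them in each stage, beside 18% of all genes in early and 7.98% in late stage lines. Between the stages DESeq2 called 2 of the 3 and edgeR none, with 10.9% and 0% of all genes called. FOXO1 was at 2.14 and 2.75 CPM in the controls, at 12.7, 15.5 and 15.2 CPM in the early stage lines and at 10.1 and 9.82 CPM in the late stage lines. Its log2 fold change was 2.55 (SE = 0.21, FDR = 0.000266) in early and 2.00 (SE = 0.22, FDR = 0.00133) in late stage lines. FOXO1 passed the CPM limit only through DasR lines, as did PRR5 and KICS2, so a gene of this kind that did not rise would not have been tested. The FDRs of these genes are therefore values only. Of 5 tested p53-responsive genes, BBC3, a proapoptotic gene, fell to 0.407 of the control level in early stage lines (log2 fold change = -1.30, SE = 0.20, FDR = 0.00237), beside SESN2, while SESN1, also known as responsive to p53, rose. BBC3 and SESN2 made 40% of the 5 at an FDR of 0.005, beside 18% of all genes. At an FDR of 0.05, where 46.5% of all genes were called in either direction, 2 others of the 5 rose in early stage lines. They were MDM2, the ligase that degrades p53 (0.66, FDR = 0.00562), and GADD45A, a growth arrest gene (0.30, FDR = 0.0414). Both were chosen after their values were seen. K562 cells are known to lack working p53.

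The largest group was the 20 synthesis genes known to depend on mTORC1, of which 8 fell and none rose in early stage lines, and 4 fell and 1 rose in late stage lines. These are 40% and 25% of the group, beside 18% and 7.98% of all genes. Their median log2 fold change was -0.689 in early stage lines, where that of all genes was 0.00307. At an FDR of 0.05, 10 of the 20 were lower and 2 higher there, with 46.5% of all genes called. FASN, SQLE and CAD lay above the control mean in each early stage line (log2 ratios 0.50 to 0.94, 0.39 to 0.75 and 0.29 to 0.51). The 3 of the 20 with the smallest p are also targets of ATF4, the factor of the amino acid response. ASNS, asparagine synthetase, was at 897 and 952 CPM in the controls, at 184, 175 and 198 CPM in the early stage lines and at 257 and 300.0 CPM in the late stage lines (log2 fold change = -2.33, SE = 0.10, FDR = 6.17e-05 in early stage lines). PHGDH, the first enzyme of serine synthesis, fell to 0.191 of the control level (log2 fold change = -2.39, SE = 0.13, FDR = 7.76e-05) and MTHFD2, of mitochondrial folate metabolism, to 0.186 (-2.42, SE = 0.16, FDR = 0.000157). The one that rose in late stage lines was FASN, fatty acid synthase (log2 fold change = 1.06, SE = 0.17, FDR = 0.00493).

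Leaving out 1 library at a time, GAB2 and ASNS kept their calls in all 7 fits of both comparisons, and PHGDH and MTHFD2 kept theirs in all 7 in early stage lines. FOXO1 also stayed under 0.005 in all 7 in early stage lines. For FOXO1, PRR5 and KICS2 such results are values only, since they passed the CPM limit only through DasR lines. A fit without a control or late stage line leaves 1 library in that group and takes its spread from the other groups. Apart from IRS1, MDM2 and GADD45A, which were not examined in this way against controls, each other gene named from these groups lost its call in at least 1 fit without changing direction. Those called in the fewest of the 7 were KICS2 and ATG13 in late stage lines, in 0, PIK3R4 and FASN in late stage lines, in 1, and NPRL3 in early stage lines, in 2. In early stage lines the highest FDR reached was between 0.00501 for SESN2 and 0.0311 for NPRL3, both without the drug naive line. In late stage lines the highest was 0.0302, for FASN without the DMSO line.

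Markers of the cell type were read beside these values. All 11 erythroid markers listed were tested, as K562 is an erythroleukemic line, and the lowest value of any was 18.8 CPM, for EPOR in the DMSO line. Their summed level was 4134 and 3555 CPM in the controls, then 9767, 10992 and 8395 CPM at 10, 15 and 25 nM, and 5931 and 4802 CPM at 50 and 200 nM. In early stage lines 3 of the 11 were higher at an FDR of 0.005 (TFRC, EPOR and HBG1) and 8 at 0.05. Of all genes 7.92% were higher at 0.005, and 46.5% were called in either direction at 0.05. Not all markers rose. GATA1 lay below the control mean at 10, 15 and 25 nM (log2 ratios -0.35, -0.05 and -0.14). At 50 and 200 nM GATA1 lay above it (0.15 and 0.46). HBE1 was mixed, at -0.41, 1.38 and 0.19 in the 10, 15 and 25 nM lines. HBG2 or HBZ was the most abundant marker in every line. HBG1 and HBG2 are near-identical copies that share reads. SESN1 and SESN3 were highest in the 3 early stage lines, as was the summed level of the erythroid markers. The part of this shift in the member values was not tested. Of 13 markers of other cell types, 4 passed the CPM limit (CD3D, LYZ, EPCAM and PECAM1), and none was called against controls by edgeR, DESeq2 or limma-voom. Against controls edgeR called 18% of all genes in early and 7.98% in late stage lines, and DESeq2 34% and 24%. In each of the 2 stages 1 of the 4 had an unadjusted p under 0.05. This held for 5665 of all 10452 genes in early and 4798 in late stage lines. Between the stages CD3D was higher in late stage lines at an FDR of 0.05 (log2 fold change = 2.41, FDR = 0.0270), as 12.7% of all genes differed. Of the 4, 2 had an unadjusted p under 0.05, as did 3450 of all 10452 genes. At 0.005 DESeq2 called 1, with 10.9% of all genes called. At that threshold edgeR and limma-voom called none, with 0% of all genes called. CD3D reached the CPM limit in no early stage line and PECAM1 only in late stage lines, so their FDRs are values only. The summed level of all 13 lay between 98.9 and 202 CPM, with LYZ or EPCAM the most abundant in every line, and MS4A1, MPO and KRT5 were at or near 0. In bulk RNA, fewer cells of a type and less RNA per cell cannot be told apart.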

How the data were processed

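The authors prepared directional libraries after ribosomal RNA depletion, sequenced 75-base read pairs, aligned them to hg19 with STAR and deposited raw counts per gene, and the submitters' processing notes name featureCounts, FastQC and edgeR without versions. Deposited columns of the authors' own comparisons (log2 fold changes, p-values, FDR) were not used, and symbols and transcript lengths were taken from those tables. The members, lists and tests were chosen with earlier results of these data known.

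Genes with at least 10 CPM in 2 libraries were kept, TMM factors set the scaling, and groups were compared in R 4.3.3 by the quasi-likelihood functions glmQLFit and glmQLFTest of edgeR 4.0.16, with 1 coefficient per group, all 7 libraries and an FDR of 0.005 (0.05 as a second threshold). SE was the log2 fold change over the root of F. Levels are counts over library totals. All 10 members were named, and up to 3 called genes of smallest p per list and comparison, with up to 2 of the opposite direction. Alternatives were RLE scaling, library size alone, 1 CPM or no limit, DESeq2 1.42.0, limma-voom (limma 3.58.1), fits to 2 groups and leaving out each library. The fit was tested on simulated data. Sequences are from RefSeq (GRCh38.p14), with windows used for 8 of the 10 members, and positions and exon overlaps from GENCODE on GRCh37. The common dispersion was 0.0260. No repeat library of a line was analysed here, protein sequences were not used here, and a few genes were left out of the lists and are not reported.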

Additional observations from a re-analysis of the deposited data

Results flagged for a closer look

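For 7 of the members and pathway genes named above, IRS1 aside, the late stage lines differed from the early stage lines at an FDR of 0.05 by edgeR's quasi-likelihood test. None passed 0.005. Among members this was SESN1, 1 of 9 tested, with a log2 fold change of -0.54 (FDR = 0.0422, lower in both late stage lines). Among the other pathway genes, PIK3R2 was lower in late stage lines (-0.62, FDR = 0.0234). SESN2 (0.76, FDR = 0.0474), DDIT4 (1.37, FDR = 0.0413), ASNS (0.58, FDR = 0.0184), PHGDH (0.54, FDR = 0.0393) and MTHFD2 (0.66, FDR = 0.0410) were higher in late stage lines. These 5 were below the controls in early stage lines. At this threshold 12.7% of all genes differed between the stages. Of the 7 fits that left out 1 library, SESN1, SESN2, DDIT4, PHGDH and MTHFD2 passed 0.05 in 1 each, PIK3R2 in 5 and ASNS in 6. Each had its highest FDR without the 200 nM line, between 0.0950 for ASNS and 0.227 for SESN1, with the direction kept. Without that line the log2 fold change was 0.53 for DDIT4, 0.36 for SESN2, 0.37 for MTHFD2 and 0.34 for PHGDH. IRS1, at -3.05 (FDR = 0.0167), is given as a value only, since it passed the CPM limit only through the early stage lines.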

How the results depend on the processing

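Of 405 member values under the alternatives, 365 kept their direction and side of the threshold, 15 changed direction, 12 gained a call and 13 lost one. None of 375 values of the other named genes changed direction, and 71 lost their call. The tests rest on 2 or 3 lines a group, and the median log2 fold change of all genes stayed near 0 under every scaling and filter.

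Members called in early stage lines numbered 2, against 3 by DESeq2 and 1 with library size alone or with the 1 CPM limit. Both calls were lost whenever a control or early stage line was left out. SESN3 was called as well without a late stage line, and when only early stage and control libraries were fitted. It passed the CPM limit only through the early stage lines, so these calls of SESN3 are values only. In late stage lines the count of 0 became 1 by DESeq2, 2 at an FDR of 0.05 and 0 to 1 with a library left out, the 1 being SESN3 without the 50 nM line (log2 fold change = -3.73, FDR = 0.00477, with the lone 200 nM line assumed to vary like the other groups). Between the stages 0 became 1 at an FDR of 0.05 and 0 to 1 with a library left out, again SESN3 without the 50 nM line. Other pathway genes called in early stage lines numbered 21, with 32 by DESeq2, 46 at an FDR of 0.05 and 7 to 24 with a library left out, the lowest without the drug naive line, and 12 without the DMSO line. In late stage lines 11 became 30 by DESeq2, 6 with only the libraries of the compared groups, 35 at an FDR of 0.05 and 2 to 8 with a library left out, the lowest without the drug naive line, 3 without the DMSO line and 5 without the 25 nM or the 50 nM line. Between the stages 0 became 1 with no CPM limit, 19 by DESeq2, 20 at an FDR of 0.05 and 0 to 2 with a library left out. Without the drug naive line the count of all genes called in early stage lines fell from 1881 to 208. The cause was not tested.

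Values that changed direction were at most 0.113 in size on the log2 scale with all libraries, apart from SESN3 in late stage lines (-0.58). With a library left out, the log2 fold change of MTOR ranged from -0.061 to 0.284 in early stage lines, from -0.058 to 0.288 in late stage lines and from -0.042 to 0.034 between the stages. That of TSC1 ranged from -0.0094 to 0.226 in late stage lines and from -0.129 to 0.107 between the stages, where it was also 6.51e-05 with library size alone, 0.026 with the 1 CPM limit and 0.032 with no limit. The range was -0.161 to 0.037 for TSC2 in late stage lines, -0.161 to 0.021 for RHEB in early stage lines, -0.116 to 0.024 for AKT1S1 between the stages and -3.73 to 0.34 for SESN3 in late stage lines, the last positive without the 200 nM line.

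No paired analysis was possible because each line gave 1 library and the labels share no replicate number across groups.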
